A study of Homo sapiens with 6 samples.

Results

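Genes of desmosomes, adherens junctions and gap junctions, with the cadherins that serve them, were compared between a mutant and the parental line of HCT116, a long-established cell line from a human colorectal carcinoma. The list names 36 genes by function, and 34 of them were measured by a probe set that carries exactly 1 gene symbol, out of 18417 genes measured in this way. Each of the 34 had 1 such probe set. CTNND1, a catenin gene whose probe set carries more than 1 symbol, and CDH4, a cadherin gene, were not analysed here.

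Total RNA was hybridised to 6 Affymetrix whole-transcript arrays, 3 of a mutant HCT116 derivative whose DNA methylation is described as altered and 3 of parental HCT116, all grown in McCoy's 5A medium with serum and antibiotics. They were deposited as test data for COHCAP, a program that joins methylation with expression, to ask what a gene mutation does to expression across the genome. Which gene is mutated, and whether the arrays stand for separate cultures or clones, is not in the labels. An effect of the mutation and any other difference between the 2 lines cannot be told apart, and the p-values rest on the spread among these 6 arrays alone, which may be technical. Values are log2 expression made by robust multi-array average (RMA), which removes background, gives all arrays the same distribution and compresses differences where signals are dim. The 6 arrays had medians of 6.88 to 6.93, and a probe set's level is compared between lines but not with the level of another probe set. In bulk RNA, fewer cells that express a gene and less RNA per cell cannot be told apart.

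Neighbouring epithelial cells are held together by junctions built around cadherins, transmembrane proteins that bind their like on the next cell in the presence of calcium. In adherens junctions the classical cadherins are tied through catenins to actin, with nectins and afadin as a parallel adhesion system. In desmosomes the desmogleins and desmocollins are tied through plakoglobin, plakophilins and desmoplakin to keratin filaments, and gap junctions are channels of connexins between the cells. DSG2 and DSC2 are the desmosomal cadherins of simple epithelia such as that of the colon, whereas the other desmogleins and desmocollins belong mainly to stratified epithelia such as skin.

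Of the 34 genes, 11 fell and 2 rose in the mutant, and 21 did not pass the test (limma, adjusted p under 0.05 with Benjamini-Hochberg adjustment over all 33297 probe sets). Over all 18417 genes 11.3% were called lower, 14.6% higher and 25.9% in either direction; the genes called higher numbered 2685, but 1720 without mutant replicate 2 and 1778 without parental replicate 2. The median difference, mutant minus parental, was -0.10 on the log2 scale for the 34 genes and 0.0034 for all genes; it was -0.061 without mutant replicate 2. By at least 1.5-fold, 6 genes fell and 1 rose, where 3.88% of all genes fell and 3.34% rose by that much. The 6 were the classical cadherin genes CDH1 and CDH3, the nectin gene NECTIN3, the desmocollin genes DSC2 and DSC3 and the connexin gene GJB2, and the gene that rose was the vinculin gene VCL.

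How bright a probe set was went with how often it was called. The 9 genes with a mean log2 under 6 (CDH2, CDH6, CDH11, CTNNA2, DSG1, DSG3, DSG4, DSC1 and GJA1) had 0 calls by limma, and 1 of them had an unadjusted p under 0.05; of all genes that dim, 6.45% were called. Of the 25 brighter genes 11 fell and 2 rose, against 14% lower and 18.7% higher among the 13645 genes of that brightness; by at least 1.5-fold these 25 had 6 lower and 1 higher, against 4.61% and 4.09%. The arrays of the lines did not overlap for 18 of the 34 genes (52.9%), and for 45.8% of all genes. Each junction type had at least 1 call, as the plot of differences shows, but the groups hold only 3 to 9 genes. Called were 33.3% of the classical cadherins, 25% of the catenin and actin link genes and 40% of the nectin and afadin genes. For desmosomal cadherins, desmosomal plaque and membrane genes and gap junction genes it was 42.9%, 44.4% and 33.3%, beside 25.9% of all genes. In groups this small, at least 1 call says little at that share.

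**Figure D1:**
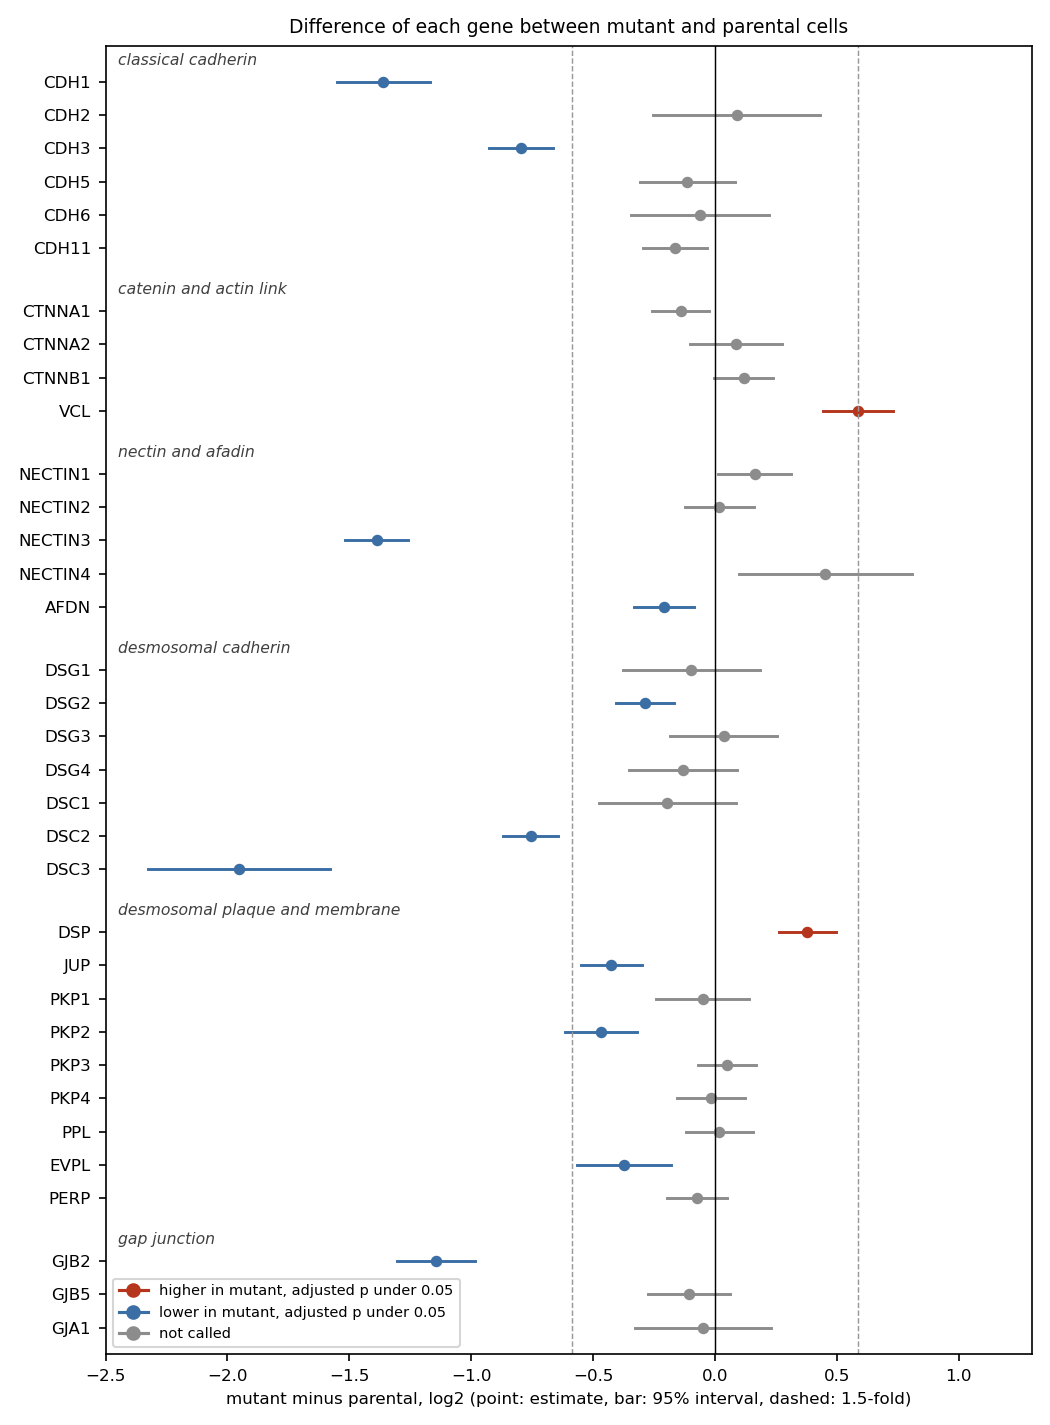
Difference of each gene between mutant and parental cells (x axis, mutant minus parental, log2), with the 34 genes grouped by role on the y axis; points are limma estimates, bars 95% intervals, and dashed lines mark 1.5-fold. DSC3 lies lowest at -1.95, NECTIN3, CDH1 and GJB2 lie between -1.39 and -1.14, and VCL lies highest at 0.59.

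Among the 6 classical cadherins 2 fell, CDH1 and CDH3. CDH1 encodes E-cadherin, the main cadherin of epithelial adherens junctions. Its probe set (7996837) read 8.83, 8.71 and 8.97 on the mutant arrays, against 10.16, 10.18 and 10.26 on the parental arrays (log2). No mutant array came within a log2 unit of a parental one, and the difference was -1.36 (95% interval -1.55 to -1.17), a 2.57-fold decrease with a limma adjusted p of 2.04e-04. CDH3, which encodes P-cadherin and stands next to CDH1 on chromosome 16, read 11.11, 11.06 and 10.97 on the mutant arrays, against 11.84, 11.84 and 11.83 on the parental arrays. The parental arrays agreed within 0.02, the mutant arrays all lay lower, and the difference was -0.80 (-0.93 to -0.66, limma adjusted p = 3.47e-04).

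The cadherins of other tissues gave no call. CDH2 encodes N-cadherin, typical of neural and mesenchymal cells, and it read 5.26, 5.19 and 5.59 on the mutant arrays, against 5.06, 5.45 and 5.27 on the parental arrays. The arrays of the lines overlapped, and the difference of 0.089 had an interval of -0.25 to 0.43, which includes 0 (limma adjusted p = 0.752). The values for CDH5, the cadherin of endothelium, CDH6, known from kidney, and CDH11, known from mesenchyme and bone, were -0.11, -0.062 and -0.16. CDH11 did not overlap between lines, at 4.91 to 5.02 on mutant arrays and 5.08 to 5.17 on parental arrays, but its adjusted p was 0.0958 (limma).

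Of the catenin genes, which carry the link from cadherin to actin, CTNNB1, CTNNA1 and CTNNA2 did not pass the test. JUP, the plakoglobin gene, fell and is given below with the desmosomal plaque. CTNNB1 encodes beta-catenin, which binds the cadherin tail and also acts in WNT signalling, and its probe set read 12.70, 12.68 and 12.75 on the mutant arrays, against 12.55, 12.63 and 12.60 on the parental arrays. All mutant values lay above all parental ones, yet the difference of 0.12 (-0.0034 to 0.24) had a limma adjusted p of 0.18. CTNNA1, which encodes alpha-E-catenin, the actin-binding partner of beta-catenin, averaged 10.95 ± 0.045 in mutant cells and 11.09 ± 0.020 in parental cells (SD, n = 3 each) without overlap, a difference of -0.14 (-0.26 to -0.023; limma adjusted p = 0.106). Both intervals exclude a change of 1.5-fold in either direction. CTNNA2, the neural alpha-catenin gene, was dim and differed by 0.086 (limma adjusted p = 0.545).

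VCL was the gene of the group with the largest increase. It encodes vinculin, which strengthens the hold of alpha-catenin and of integrin adhesions on actin. Its probe set (7928444) read 10.95, 10.94 and 11.03 on the mutant arrays, against 10.31, 10.38 and 10.46 on the parental arrays. The lowest mutant value stood well above the highest parental one, and the difference was 0.59 (0.44 to 0.73; limma adjusted p = 0.00147). As a fold change this is 1.5, at the threshold itself.

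In the nectin system 1 receptor gene and the adaptor gene fell. NECTIN3 encodes an adhesion receptor that pairs with other nectins across the cell gap. Its probe set (8081548) read 9.64, 9.54 and 9.65 on the mutant arrays, against 10.97, 11.02 and 11.01 on the parental arrays. Both triplets were tight and lay far apart, with a difference of -1.39 (-1.52 to -1.26), a 2.62-fold decrease and the smallest adjusted p of the 34 genes (5.11e-05, limma). AFDN, which encodes afadin, the adaptor between nectins and actin, averaged 8.03 ± 0.038 in mutant cells and 8.24 ± 0.043 in parental cells (SD, n = 3 each) and fell by 0.21 (limma adjusted p = 0.0345). Although its lines did not overlap, 8 of 17 alternatives left it uncalled, with adjusted p-values of 0.0115 to 1 over all 17.

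The other nectin genes did not pass. NECTIN1 and NECTIN2, which encode widely expressed nectins, differed by 0.16 (0.011 to 0.31) and 0.018 (-0.12 to 0.16), with limma adjusted p-values of 0.141 and 0.891. NECTIN4, a nectin of some carcinomas, read 6.87, 6.86 and 7.35 on the mutant arrays, against 6.58, 6.69 and 6.46 on the parental arrays. The mutant arrays all lay higher, 1 of them by more, and the difference of 0.45 (0.097 to 0.81) had a limma adjusted p of 0.0885. Without mutant replicate 3 it was 0.29. The gene was called when only brighter probe sets or only probe sets with 1 symbol were tested, with adjusted p-values of 0.0416 and 0.0372 in a range of 0.0372 to 0.977.

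**Figure D2:**
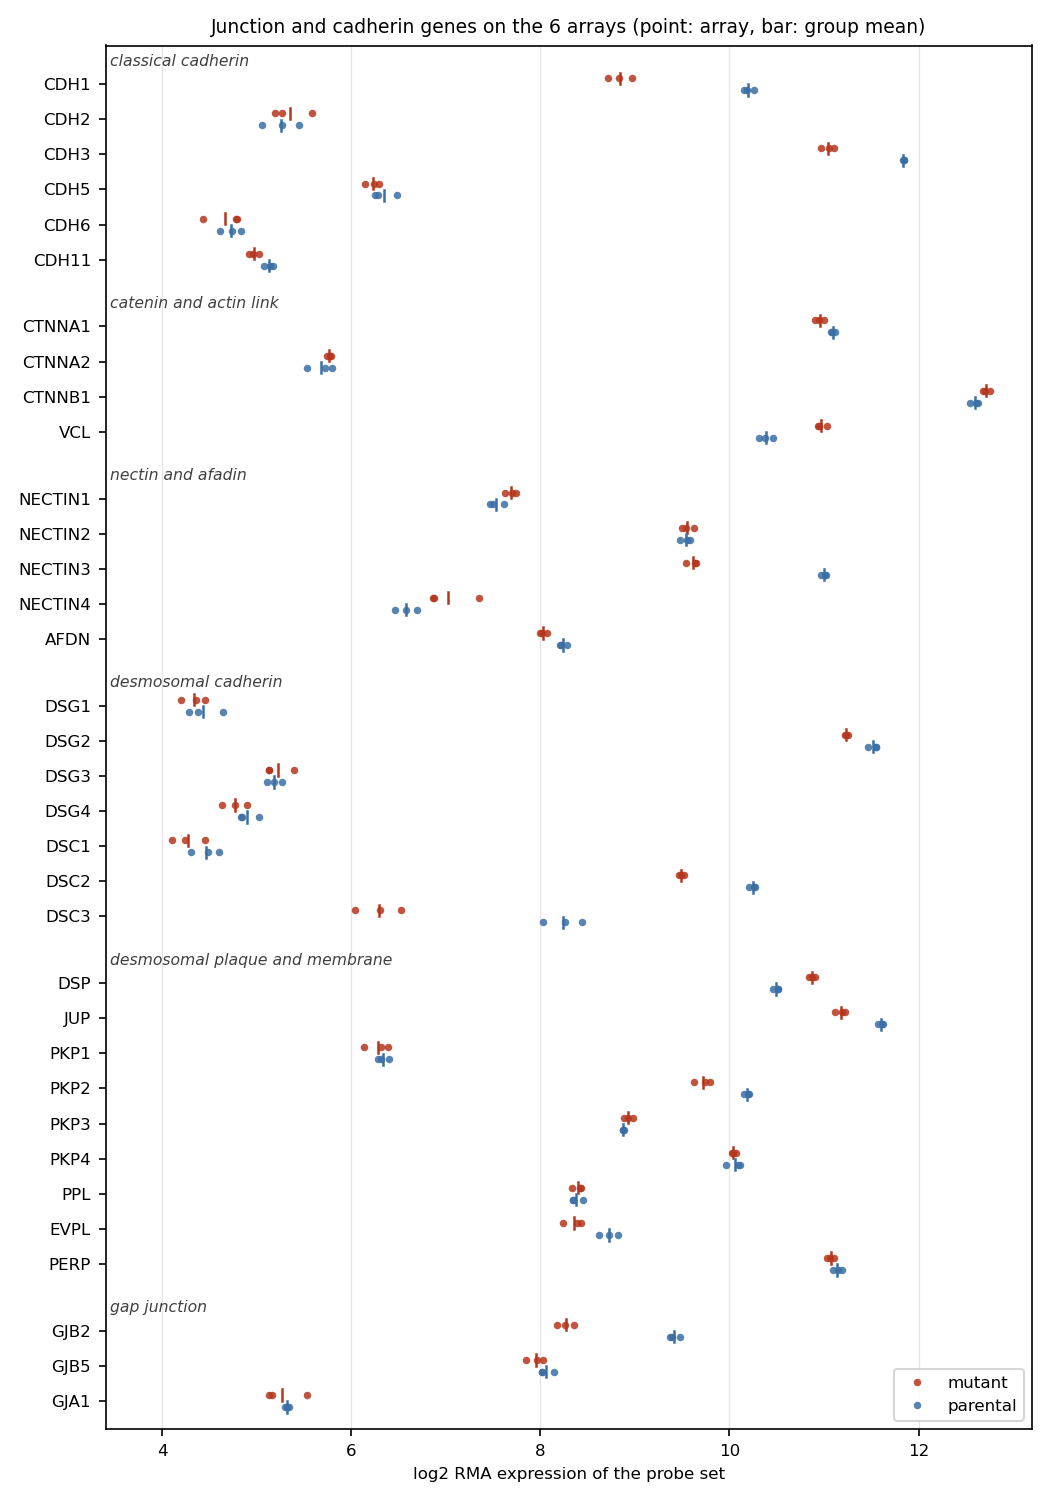
Log2 RMA expression (x axis) of each gene (y axis, grouped by role) on every array, with mutant points above parental points in each row and a bar at the group mean. The mutant and parental points of CDH1, CDH3, NECTIN3, DSC2, DSC3 and GJB2 are separate, with the mutant lower, while the 9 genes with a mean under 6 crowd together at the left.

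All 7 desmosomal cadherin genes stand in 1 cluster on chromosome 18, and the 3 that exceeded a mean log2 of 6 all fell. DSC3, a desmocollin known from the basal layers of stratified epithelia, had the largest decrease of the 34 genes. Its probe set (8022692) read 6.30, 6.53 and 6.04 on the mutant arrays, against 8.03, 8.26 and 8.44 on the parental arrays. The arrays of each line were more scattered than for the other genes that fell, but the lines did not overlap, and the difference was -1.95 (-2.33 to -1.58), a 3.87-fold decrease (limma adjusted p = 5.66e-04). The mutant mean of 6.29 lies in the range where RMA compresses differences.

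The desmosomal cadherins of simple epithelia fell by less. DSC2 (probe set 8022711) read 9.48, 9.46 and 9.52 on the mutant arrays, against 10.25, 10.27 and 10.21 on the parental arrays, with both triplets within 0.06 and a difference of -0.76 (-0.87 to -0.64; limma adjusted p = 2.53e-04). DSG2 (probe set 8020779), its desmoglein partner, read 11.23, 11.26 and 11.22 on the mutant arrays, against 11.47, 11.55 and 11.55 on the parental arrays. All mutant values lay below all parental values, and the decrease of 0.29 (-0.41 to -0.17 as a difference; limma adjusted p = 0.0102) is 1.22-fold in size. The intervals of the differences of DSC3, DSC2 and DSG2 do not overlap each other.

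The remaining desmosomal cadherins, DSG1, DSG3, DSG4 and DSC1, all of stratified epithelia or hair, were dim in both lines. Their group means ran from 4.27 to 5.22 on mutant arrays and from 4.43 to 5.18 on parental arrays. The differences of -0.098 (DSG1), 0.036 (DSG3), -0.13 (DSG4) and -0.20 (DSC1) did not pass, with limma adjusted p-values of 0.338 or more.

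The desmosomal plaque changed unevenly, with 3 genes lower and 1 higher of 9. DSP encodes desmoplakin, which anchors keratin filaments, and its probe set (8116780) read 10.91, 10.84 and 10.87 on the mutant arrays, against 10.46, 10.51 and 10.51 on the parental arrays. It rose by 0.38 (0.26 to 0.49; limma adjusted p = 0.00321), with every mutant array above every parental one. JUP encodes plakoglobin, which serves desmosomes and adherens junctions alike, and its probe set (8015412) read 11.22, 11.12 and 11.19 on the mutant arrays, against 11.57, 11.61 and 11.62 on the parental arrays. It fell by 0.42 (-0.55 to -0.30 as a difference; limma adjusted p = 0.00272), and again the lines did not overlap.

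PKP2 encodes a plakophilin, an armadillo protein that binds desmoplakin, and its probe set (7962212) read 9.62, 9.74 and 9.79 on the mutant arrays, against 10.15, 10.20 and 10.21 on the parental arrays. It fell by 0.47 (-0.61 to -0.32 as a difference; limma adjusted p = 0.0036). The other plakophilins did not pass. PKP1, of stratified epithelia, differed by -0.051, PKP3 by 0.049 and PKP4 by -0.017, with adjusted p-values of 0.584 or more (limma). For PKP3 the interval of -0.068 to 0.17 and for PKP4 that of -0.16 to 0.12 leave room only for small changes.

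EVPL, which encodes the plakin envoplakin of the cornified envelope, read 8.39, 8.24 and 8.43 on the mutant arrays, against 8.73, 8.82 and 8.62 on the parental arrays. The lines did not overlap and the decrease of 0.37 had a limma adjusted p of 0.0219, but 7 of 17 alternatives left it uncalled (adjusted p of 0.00677 to 0.866 over all 17). Its partner PPL (periplakin) differed by 0.018 (-0.12 to 0.16), and PERP, a desmosomal membrane protein and p53 target, by -0.073 (-0.20 to 0.050); neither passed (limma adjusted p = 0.887 and 0.421).

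Of the 3 gap junction genes 1 fell. GJB2 encodes a connexin, a gap junction channel protein of many epithelia, and its probe set (7970441) read 8.26, 8.18 and 8.36 on the mutant arrays, against 9.39, 9.37 and 9.48 on the parental arrays. The lines lay about a log2 unit apart, with a difference of -1.14 (-1.30 to -0.98), a 2.21-fold decrease (limma adjusted p = 2.04e-04). GJB5, another beta connexin, differed by -0.11 (-0.27 to 0.060). GJA1, which encodes the alpha connexin that is widely expressed in other tissues, was dim, at 5.53, 5.12 and 5.16 on the mutant arrays, against 5.34, 5.32 and 5.30 on the parental arrays, with the lines overlapping.

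Since the mutant line was described by its altered DNA methylation, the sequence before the start of the genes with the largest changes is shown, with every CpG in capitals. RefSeq promoter windows were at hand for 22 of the 34 genes; the 250 bases before the annotated start are given for the 3 genes with a window that fell more than 2-fold and for both genes that rose, and the sequences are those of the reference genome, not of these cells.
DSC3 (GRCh38.p14, chr18:31042743-31042992, minus strand): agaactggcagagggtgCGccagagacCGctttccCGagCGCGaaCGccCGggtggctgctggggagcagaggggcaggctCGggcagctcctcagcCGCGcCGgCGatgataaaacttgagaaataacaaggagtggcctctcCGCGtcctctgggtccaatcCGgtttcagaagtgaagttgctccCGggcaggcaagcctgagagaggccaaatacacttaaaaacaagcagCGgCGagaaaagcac
NECTIN3 (GRCh38.p14, chr3:111071566-111071815, plus strand): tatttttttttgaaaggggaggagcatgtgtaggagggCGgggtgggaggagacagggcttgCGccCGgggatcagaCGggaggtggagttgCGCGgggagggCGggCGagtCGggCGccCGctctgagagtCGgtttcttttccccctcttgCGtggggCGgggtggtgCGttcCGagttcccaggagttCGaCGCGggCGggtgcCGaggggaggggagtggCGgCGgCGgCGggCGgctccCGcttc
GJB2 (GRCh38.p14, chr13:20192939-20193188, minus strand): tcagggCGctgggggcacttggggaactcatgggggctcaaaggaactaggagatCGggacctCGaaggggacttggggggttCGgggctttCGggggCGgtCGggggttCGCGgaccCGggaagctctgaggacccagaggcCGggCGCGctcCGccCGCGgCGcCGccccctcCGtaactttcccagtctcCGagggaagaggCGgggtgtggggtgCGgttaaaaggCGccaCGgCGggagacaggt
VCL (GRCh38.p14, chr10:73997866-73998115, plus strand): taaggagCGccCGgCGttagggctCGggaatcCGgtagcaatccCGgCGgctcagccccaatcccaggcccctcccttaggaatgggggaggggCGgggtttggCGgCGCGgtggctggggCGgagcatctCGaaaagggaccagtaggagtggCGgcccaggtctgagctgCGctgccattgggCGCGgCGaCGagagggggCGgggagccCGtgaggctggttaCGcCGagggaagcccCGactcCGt
DSP (GRCh38.p14, chr6:7541421-7541670, plus strand): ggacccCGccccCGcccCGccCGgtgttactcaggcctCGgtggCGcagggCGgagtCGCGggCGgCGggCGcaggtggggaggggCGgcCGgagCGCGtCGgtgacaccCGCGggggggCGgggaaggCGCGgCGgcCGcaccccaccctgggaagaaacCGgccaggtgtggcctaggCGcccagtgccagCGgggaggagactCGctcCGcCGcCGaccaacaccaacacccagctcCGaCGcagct

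These windows held 18 CpG for DSC3, 27 for NECTIN3 and 25 for GJB2 among the genes that fell, and 25 for VCL and 33 for DSP among those that rose, where the median over 35116 windows was 11 and the upper quartile 23. CpG density was thus above the median in all 5, whichever way the gene moved. The E-box CAGGTG, searched on both strands (CACCTG on the other) as the core bound by repressors of the SNAI and ZEB families, lay in 7 of 32 windows of these genes (21.9%) and in 17.5% of all windows. Counted by gene, it was found for 7 of 22 (31.8%), some with more than 1 window, and for 20.6% of all genes with a window. CDH1, CDH3, PKP2 and EVPL are not among the 22. It was found before 4 of 7 genes that fell (AFDN, DSC2, DSG2 and JUP), 1 of 2 that rose (DSP) and 2 of 13 that were not called (NECTIN4 and DSG1). DSC2 and JUP also have a window without it. The windows of DSC3, NECTIN3, GJB2 and VCL do not hold these letters.

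Calls were unevenly spread over the chromosomes: 25% of 264 genes were lower on chromosome 18, 22.9% of 1067 on chromosome 17 and 17.7% of 317 on chromosome 13, against 11.3% of all genes. Each gene was therefore set beside the 10 measured genes on either side of it, leaving out the genes of the list of 36 but not other genes of the same families (GJB6 beside GJB2, CD96 beside NECTIN3). Around the desmosomal cadherin cluster the median difference of the 20 neighbours was 0.020 on the log2 scale, with 3 higher and 1 lower. DSC3 lay below all 20 neighbours, and DSC2 and DSG2 lay below 19 each. The exception was B4GALT6, close to DSG2 and named after its values were seen, at -1.06. Around CDH1 and CDH3 the median was -0.11, with 4 lower and 1 higher. CDH1 lay below all 20, while HAS3, a hyaluronan synthase gene named after its values were seen, reached -1.17 and lay below CDH3.

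GJB2 on chromosome 13 stood below all of its neighbours, whose median was 0.073 with 3 higher and 0 lower by limma. PKP2 on chromosome 12, NECTIN3 on chromosome 3 and AFDN on chromosome 6 likewise lay below all 20, against medians of 0.056, 0.028 and 0.0028. Their lowest neighbours were at -0.39, -0.30 and -0.203, so that AFDN at -0.210 was only just the lowest. CDH11, which was not called, also lay below all 20 of its neighbours. JUP on chromosome 17 lay below 18 of 20, against a median of 0.040. EVPL on the same chromosome differed less from its surroundings. Its neighbours had a median of -0.25, with 10 of 20 lower and 0 higher, and 4 of them were at or below its difference of -0.37. VCL and DSP lay at or above 19 and 18 of their 20 neighbours.

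**Figure D3:**
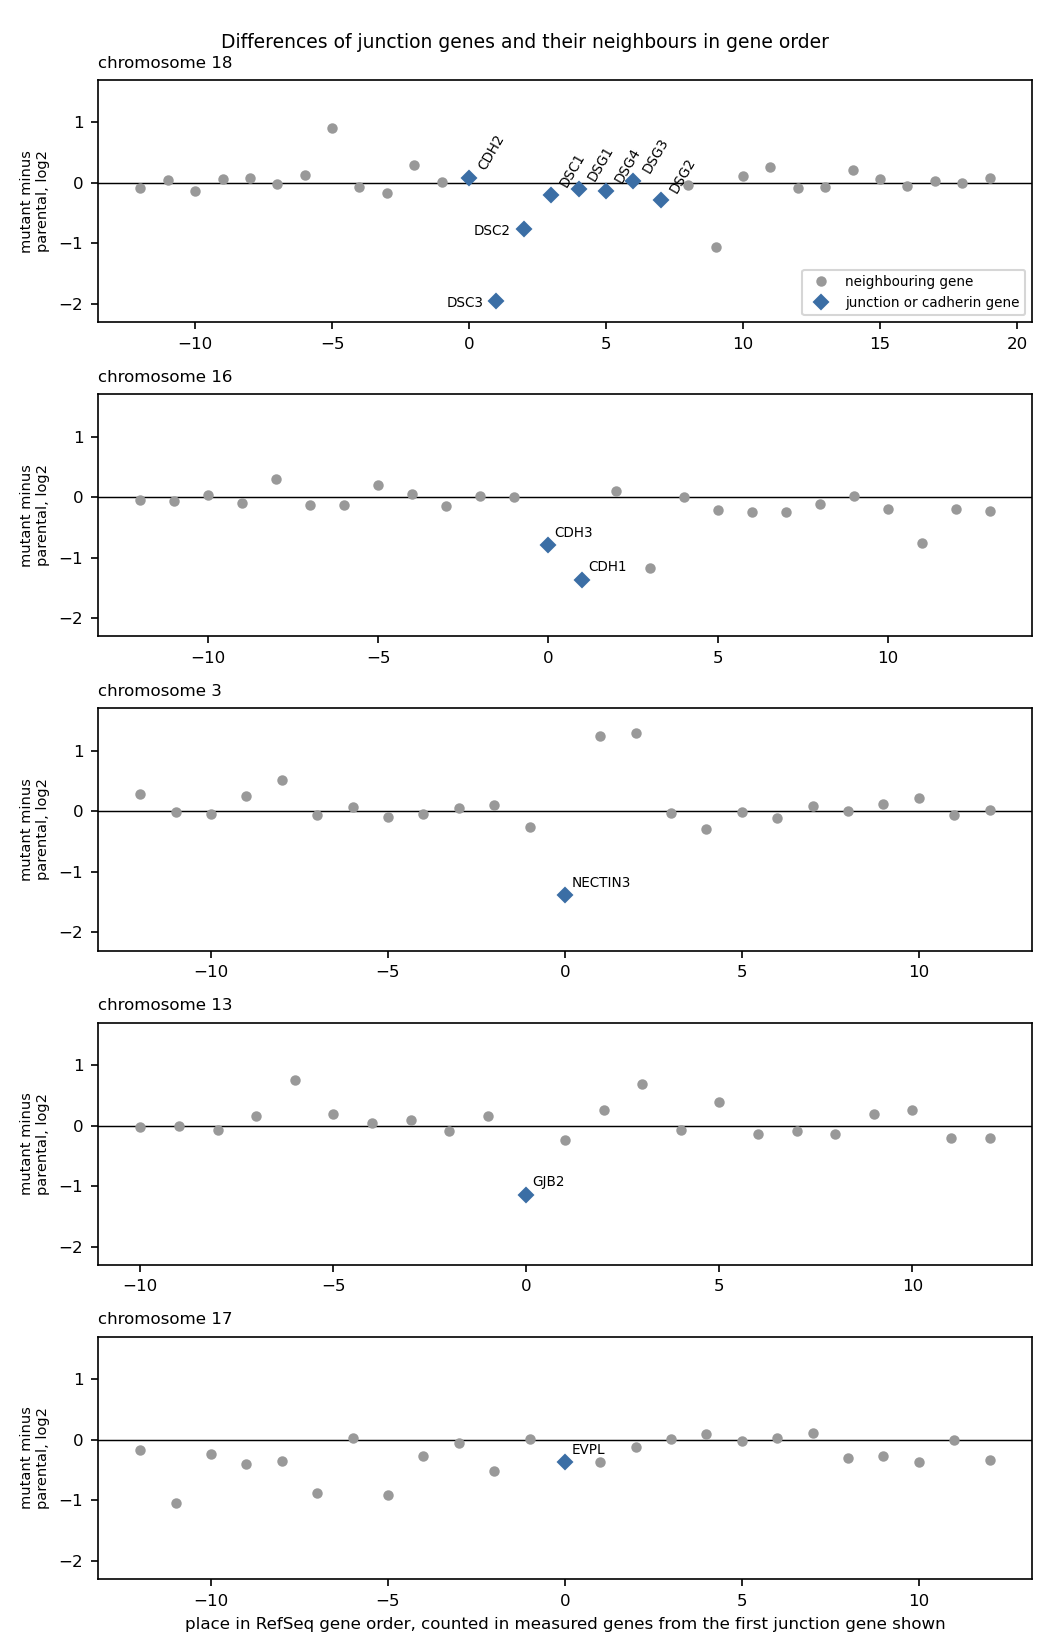
Differences (y axis, mutant minus parental, log2) of junction genes (diamonds) and of the measured genes around them (circles) in RefSeq gene order (x axis, counted in genes) on chromosomes 18, 16, 3, 13 and 17. DSC3 at -1.95, CDH1 at -1.36, NECTIN3 at -1.39 and GJB2 at -1.14 stand below every gene counted beside them, whereas EVPL at -0.37 stands among neighbours with a median of -0.25.

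Other genes of the same structures were followed in a list of 90, of which 80 were measured. Of these, 7 rose and 9 fell, beside 14.6% higher and 11.3% lower among all genes, and the median difference was -0.025, so that 20% were called against 25.9% of all genes. None of 21 other cadherins passed limma's test, and 0 had an unadjusted p under 0.05. Their differences ran from -0.094 to 0.16. Only 10 of the 21 had a mean log2 of at least 6. The rest were dim, in a range where 6.45% of all genes were called, so a missing call there says little. Of 31 other adherens junction and actin link genes 6 rose and 5 fell. Among 5 other plakin and desmosome genes DST and MACF1 fell, which encode giant plakins that link filaments, by 0.46 and 0.56 on the log2 scale. Among 15 other gap junction genes the connexin genes GJC1 and GJA5 fell, by 0.51 and 0.36, GJA5 being dim in both lines. These 4 were named after their values were seen, and among 8 nectin-like genes 1 rose.

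LIMA1 had the largest decrease of these 80 genes. It encodes EPLIN, which binds alpha-catenin and bundles actin at the junction, and its probe set (7963187) read 8.49, 8.45 and 8.29 on the mutant arrays, against 10.62, 10.67 and 10.79 on the parental arrays. The difference was -2.28 (-2.47 to -2.10), a 4.87-fold decrease (limma adjusted p = 3.39e-05), against a median of 0.016 for its neighbours. PTPRM, which encodes a receptor tyrosine phosphatase that adheres to its like and is found at cadherin contacts, read 5.59, 5.92 and 5.78 on the mutant arrays, against 7.68, 8.01 and 8.02 on the parental arrays. It fell by 2.14 (limma adjusted p = 2.26e-04), in a stretch of chromosome 18 where the neighbours had a median of -0.55 and 13 of 20 were lower. PTPRM lay below all 20, the lowest of which was at -1.36.

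LMO7, which encodes an afadin-binding protein of junctions, read 7.84, 7.87 and 7.62 on the mutant arrays, against 6.55, 6.64 and 6.44 on the parental arrays, and it rose by 1.23 (limma adjusted p = 4.36e-04) and stood above all 20 neighbours. PLEKHA7, whose product links cadherin complexes to microtubules, rose by 0.59 (0.44 to 0.75; limma adjusted p = 0.00177). CD96 encodes a receptor of lymphocytes for a nectin-like protein, and it is the next measured gene after NECTIN3 on chromosome 3. Its probe set read 6.42, 6.36 and 6.40 on the mutant arrays, against 5.11, 5.28 and 5.07 on the parental arrays. It rose by 1.24 (limma adjusted p = 1.95e-04), but it was dim, with a mean under 6 over the 6 arrays. CD96 lay above 19 of its 20 neighbours. The exception was ZBED2, the next measured gene, which was named after its values were seen and rose by more. The rise of CD96 was thus shared by a neighbour outside the nectin system.

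**Figure D4:**
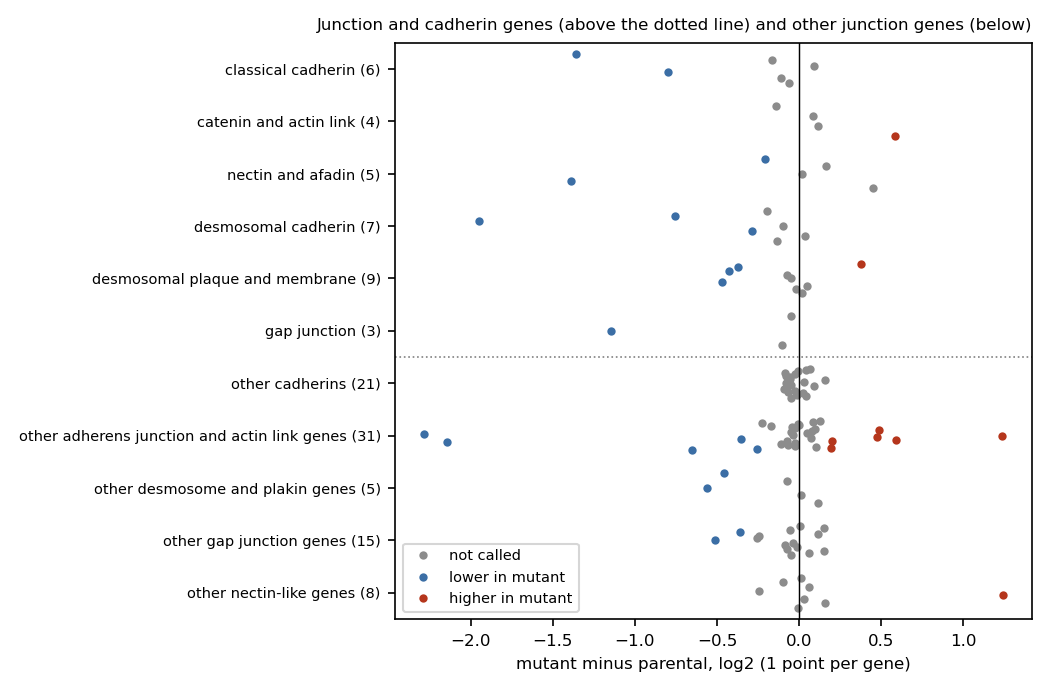
Differences (x axis, mutant minus parental, log2) of the 34 junction and cadherin genes by role (above the dotted line) and of the 80 other junction genes by list (below it), 1 point per gene, coloured by call; the number measured is in brackets. LIMA1 at -2.28 and PTPRM at -2.14 lie lowest among the other genes, and LMO7 at 1.23 and CD96 at 1.24 lie highest.

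Markers of cell types were read beside these results. Called were 27.3% of the colorectal and 16.7% of the fibroblast list, where 25.9% of all genes were called, 11.3% lower and 14.6% higher. Of 11 colorectal epithelium markers 0 rose and 3 fell, the simple-epithelium keratin genes KRT8, KRT18 and KRT19, by 0.53, 0.88 and 0.47 on the log2 scale. EPCAM and these keratins were bright in both lines, while KRT20, VIL1, CDH17 and GPA33, markers of differentiated gut epithelium, had a mean under 6. LGALS4, CDX1 and CDX2, also of the gut, had means of 6.88, 7.11 and 8.50 over the 6 arrays. Besides the keratins no difference in the list passed; EPCAM lay higher in the mutant without overlap (0.18, limma adjusted p = 0.0715) and the other 7 ran from -0.11 to 0.0066. The mean level over the list, keratins included, ran from 8.38 to 8.50 on mutant and 8.60 to 8.64 on parental arrays. Of 12 fibroblast markers 0 fell and 2 rose, the smooth muscle actin gene ACTA2, with means of 9.09 in mutant and 7.78 in parental cells, and the receptor gene PDGFRB, with means of 6.33 in mutant and 6.06 in parental cells (list means of 5.68 to 5.76 on mutant and 5.61 to 5.65 on parental arrays). Squamous epithelium markers, of interest for DSC3, had 0 of 9 called (6.07 to 6.10 on mutant and 6.05 to 6.19 on parental arrays). Only 3 of these 9 had a mean log2 of at least 6. The list names 12, and TP63, LOR and KRT6A were not analysed. Leukocyte markers had 0 of 11 called (5.60 to 5.67 on mutant and 5.61 to 5.66 on parental arrays) and endothelial markers 0 of 9 (5.83 to 5.87 on mutant and 5.81 to 5.91 on parental arrays); unadjusted limma p-values under 0.05 were found for 2, 1 and 0 of the squamous, leukocyte and endothelial markers. Of the leukocyte and endothelial markers, 4 and 3 had a mean log2 of at least 6. Such a mean alone does not show that a gene is expressed in these cells. The markers named here were picked after their values were seen, and the part of such differences in the junction results was not tested.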

How the data were processed

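Per the submitters' processing notes, the authors made the deposited log2 values with RMA and Partek; neither version is given in the sources used here. The values, 1 per probe set and array, were used as deposited. Of 33297 probe sets, 19460 carry 1 gene symbol in the platform annotation, 1754 several and 12083 are not named; symbols were updated through gene IDs to RefSeq (GRCh38.p14), and a gene is read from its single-symbol probe set with the highest mean of the 6 arrays. Depth does not apply to arrays; their number, 3 per group, limits the precision.

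Mutant minus parental was fitted to all probe sets with limma 3.58.1 (lmFit and eBayes) under R 4.3.3 as a two-sided test with no covariate, and p-values were adjusted by Benjamini-Hochberg over all 33297. The fit had 4 residual and 2.16 prior degrees of freedom. The fit was tested on simulated data, in which 50, 100 and 50 probe sets were changed by 1.5-, 2- and 4-fold. It recovered 50%, 82% and 98% of them and called 5 unchanged probe sets. Far fewer probe sets were changed there than were called in the data. Python 3.11.15, numpy 2.4.6, pandas 2.3.3 and matplotlib 3.10.9 did the rest.

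The genes and lists were chosen with earlier results of these data known. All listed junction genes are named, with up to 2 called genes per direction and further list that changed by at least 1.5-fold; other genes, including DST, MACF1, GJA5, GJC1 and the cell type markers, were named after their values were seen. Alternatives covered normalization, array medians, dim probe sets, variance models, array weights, blocking on replicate number, leaving out single arrays, restriction to probe sets with 1 symbol, a minimum fold of 1.2 and averaging the probe sets of a gene. The values gave no sign that replicate numbers pair the arrays. Deviations of same-numbered arrays correlated at 0.043, -0.013 and 0.0027, and those of differently numbered arrays at -0.064 to 0.060. With 3 arrays per group, such values cannot show that the arrays were not paired.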

Additional observations from a re-analysis of the deposited data

How the results depend on the processing

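Of the 13 junction genes called, 7 (CDH1, CDH3, NECTIN3, DSC2, DSC3, GJB2 and VCL) stayed called in the same direction under all 17 alternatives, and 0 of the 13 reversed. DSG2, DSP, JUP and PKP2 lost their call where the test required a fold of 1.2, which is stricter by construction, and AFDN and EVPL in more. That requirement lowered the junction genes called to 7 (6 lower, 1 higher), the other junction genes called to 8, all genes called to 1442 and all probe sets called to 1743. With the replicate number as a block, 11 junction genes were called (9 lower, 2 higher), AFDN and EVPL being lost. That fit also called 13 other junction genes, and 3395 of all genes. Whether the arrays were paired by number is not known. When single arrays were left out, the counts were 11 to 12 junction genes (9 to 10 lower, 2 higher), 12 to 14 other junction genes, 3198 to 3627 genes, 4037 to 4644 probe sets and a median difference of the junction genes from -0.12 to -0.061. The probe sets called were 4037 without mutant replicate 2 and 4109 without parental replicate 2. CTNNA1, CTNNB1 and NECTIN4, not called, were called under 3, 1 and 2 alternatives. With single arrays left out, 7 further differences that were not called kept their sign but moved over 1.5 times from the estimate with all arrays. They were CDH5 (-0.16 to -0.043), CTNNA2 (0.0097 to 0.14), NECTIN4 (0.29 to 0.53) and DSG4 (-0.20 to -0.064). The others were DSC1 (-0.29 to -0.12), PKP3 (0.025 to 0.071) and GJB5 (-0.15 to -0.059). Differences near 0 of 9 genes that were not called changed sign: with array weights CDH2 gave -0.016, NECTIN2 -0.0033 and PPL -0.0044, and with each array left out the ranges were CDH2 (-0.031 to 0.18), CDH6 (-0.12 to 0.055), DSG1 (-0.17 to 0.0075), DSG3 (-0.052 to 0.080), GJA1 (-0.18 to 0.024), NECTIN2 (-0.019 to 0.048), PKP1 (-0.11 to 0.020), PKP4 (-0.064 to 0.0098) and PPL (-0.0016 to 0.053); the cause was not tested.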
